A study of Homo sapiens with 4 samples.

Results

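The genes of the mitochondrial ribosome were followed in a map of H4K20me1, the single methylation of lysine 20 on histone H4, in a leukemia cell line in which SETD8 had been knocked out. Members were the peaks outside distal intergenic sequence whose nearest-gene symbol begins with MRPL or MRPS and a digit. This gave 33 of 25514 peaks, at 24 genes: 18 peaks at 16 large subunit (MRPL) genes and 15 peaks at 8 small subunit (MRPS) genes. Of the 24 genes, 17 had 1 peak, 5 had 2 and 2 had 3. The rule itself uses symbols and annotation, not fold changes or levels.

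The mark was mapped by CUT&Tag, in which an antibody brings a transposase to the chromatin that carries it, so that the DNA cut there can be sequenced. Kasumi-1 is a human acute myeloid leukemia line. There were 2 libraries labelled SETD8 knockout (sgSETD8 and sgSETD8 #2) and 2 labelled WT (sgNT and sgNT#2), each from Kasumi-1 cells, and the treatment field of the knockout and the WT libraries names CRISPR/Cas9. Nothing in the labels says whether the libraries of a genotype came from separate cultures, whether sgSETD8 #2 is another guide or another library, or whether the cells were a clone. The deposited table holds 1 value column per group, with no header that tells the groups apart, so the group of the earlier column is called A here and that of the later one B. The title of the deposited comparison has treated ahead of control, by which group A would be the knockout and group B the WT cells. Every log2 fold change is A minus B, so a positive one means more mark in group A. With 1 column per group there is no replicate spread and no test was made here. No spiked-in DNA is named in the sources used here, so a loss shared by all peaks would not show in scaled values. The mark at KMT5A, the gene of SETD8, had log2 fold changes of 0.32, 0.28 and 0.15 at its 3 peaks, which do not measure its expression and so do not check the labels.

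Mitochondria keep their own ribosome to translate the few proteins encoded in mitochondrial DNA, all of them core parts of the respiratory chain and ATP synthase. Its RNAs come from mitochondrial DNA, but its proteins are encoded by nuclear genes scattered over the chromosomes, translated in the cytosol and imported. The large subunit joins amino acids and holds the exit tunnel, and the small subunit reads the mRNA. SETD8, also called KMT5A, places the single methyl group on lysine 20 of histone H4, a mark found on the bodies of many transcribed genes and tied to the cell cycle. Acute myeloid leukemia cells have been reported to depend on mitochondrial translation.

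The promoters of 6 members are shown, chosen by fold change among promoter peaks under the member's own symbol that cover part of the printed stretch. Of these, MRPL37, MRPL11 and MRPL16 had the highest values, and MRPS23, MRPL18 and MRPL55 the lowest. The 6 do not span the whole range, since MRPL55 was at −0.12 and the lower MRPL58 peak (−0.43) does not reach the stretch. Start peaks under a neighbour's symbol were left out, among them MRPS18C at 0.82 and MRPS7 at −0.48. Each line holds the 250 bases before the first listed RefSeq start (GRCh38.p14), read 5′ to 3′ on the gene's own strand. Capitals mark matches, on either strand, to the ETS motif CCGGAAG, the NRF1 motif CGCATGCG, the YY1 motif AAGATGGCG, the E-box CACGTG or the GC box GGGCGG.
MRPL37, chr1:54199917-54200166, plus strand: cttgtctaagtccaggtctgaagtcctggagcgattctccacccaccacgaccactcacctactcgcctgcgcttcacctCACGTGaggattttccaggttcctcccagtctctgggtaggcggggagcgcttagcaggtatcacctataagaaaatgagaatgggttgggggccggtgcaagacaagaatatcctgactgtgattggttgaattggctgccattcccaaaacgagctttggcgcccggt
MRPL11, chr11:66438849-66439098, minus strand: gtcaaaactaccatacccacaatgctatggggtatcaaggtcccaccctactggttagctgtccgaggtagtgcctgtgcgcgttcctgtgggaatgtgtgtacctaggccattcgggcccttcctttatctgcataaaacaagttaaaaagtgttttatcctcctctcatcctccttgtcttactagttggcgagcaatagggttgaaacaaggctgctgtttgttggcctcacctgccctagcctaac
MRPL16, chr11:59810779-59811028, minus strand: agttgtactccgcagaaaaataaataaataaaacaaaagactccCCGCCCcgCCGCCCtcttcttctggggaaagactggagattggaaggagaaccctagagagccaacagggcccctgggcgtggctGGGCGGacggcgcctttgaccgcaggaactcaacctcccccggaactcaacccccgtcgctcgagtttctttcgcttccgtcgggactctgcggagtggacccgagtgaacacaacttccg
MRPS23, chr17:57850045-57850294, minus strand: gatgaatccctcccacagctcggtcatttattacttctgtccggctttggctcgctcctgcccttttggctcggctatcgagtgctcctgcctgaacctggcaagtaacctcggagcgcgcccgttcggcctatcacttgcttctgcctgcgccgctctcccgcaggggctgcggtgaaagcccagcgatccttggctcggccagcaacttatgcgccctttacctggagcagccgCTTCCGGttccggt
MRPL18, chr6:159789562-159789811, plus strand: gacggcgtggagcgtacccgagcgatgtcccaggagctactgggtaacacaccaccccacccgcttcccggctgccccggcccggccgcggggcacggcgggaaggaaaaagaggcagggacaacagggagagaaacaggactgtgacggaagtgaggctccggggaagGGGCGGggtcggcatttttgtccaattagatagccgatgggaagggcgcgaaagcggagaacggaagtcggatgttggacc
MRPL55, chr1:228109300-228109549, minus strand: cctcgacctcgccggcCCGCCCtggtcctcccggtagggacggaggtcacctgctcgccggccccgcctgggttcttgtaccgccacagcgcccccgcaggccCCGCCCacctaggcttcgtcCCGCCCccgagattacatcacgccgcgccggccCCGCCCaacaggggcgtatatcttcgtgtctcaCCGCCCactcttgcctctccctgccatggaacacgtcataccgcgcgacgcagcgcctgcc

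The MRPL37 stretch held 1 E-box, MRPL16 held 3 GC boxes, MRPS23 held 1 ETS match close to the start, MRPL18 held 1 GC box, MRPL55 held 5 GC boxes, and MRPL11 held none of these. The peaks cover these stretches to different degrees. Counted in bases from the start, the MRPL37 peak begins at −247, that of MRPL11 at −190, that of MRPS23 at −137 and that of MRPL16 at −33, while the MRPL18 and MRPL55 peaks cover the whole stretch. Over 69 family members with a promoter in the RefSeq table, 23 (33.3%) held the ETS motif, which is read by GABPA among other factors, against 11.8% of all 15843 protein-coding promoters. The share was 33.3% for large subunit genes (14 of 42) and 33.3% for small subunit genes (9 of 27). YY1 matches were in 4.35% of member promoters and 0.751% of all, NRF1 matches in 4.35% and 2.49%, E-boxes in 8.70% and 7.84%, and GC boxes in 55.1% and 56.0%. None of the 5 motifs contains another. ETS matches were in 6 of 24 members with an H4K20me1 peak within 1 kb of the start and in 17 of 45 without one. A match is a run of letters and says nothing of binding in these cells.

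Most of the family had no listed peak. RefSeq lists 77 protein-coding genes of the family, and 24 of them (31.2%, exact 95% interval 21.1 to 42.7) carried a peak under their own symbol, against 38.8% of all protein-coding genes (7788 of 20056). The large subunit had 16 of 49 (32.7%) and the small subunit 8 of 28 (28.6%), so the subunits were within each other's intervals (19.9 to 47.5 and 13.2 to 48.7). The symbol of the nearest gene hides some members, because many start beside another gene. When every peak within 1 kb of a RefSeq gene was counted, whatever its symbol, 33 of 77 members (42.9%) had a peak, against 43.1% of all protein-coding genes. The gain of 9 genes was 4 of the large and 5 of the small subunit. Neither way of counting found a peak at 44 genes, 29 large and 15 small.

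**Figure D1:**
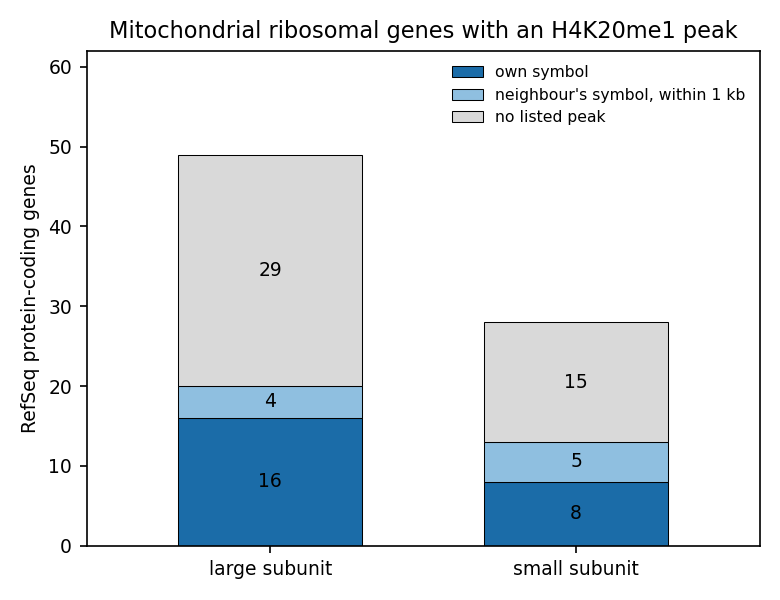
RefSeq protein-coding genes of the mitochondrial ribosome by subunit, on the vertical axis as a number of genes, split by whether a peak carries their symbol, lies within 1 kb under a neighbour's symbol, or is not listed. A peak was found by either route at 20 of 49 large subunit genes and 13 of 28 small subunit genes.

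Most listed peaks of the family lay near a gene start. Promoter peaks, up to 3 kb from a start, made up 24 of the 33 member peaks, 8 lay in introns and 1, at MRPL4, in a 3′ UTR. Promoters held 15 of 18 large subunit peaks (83.3%, Wilson 95% interval 60.8 to 94.2) and 9 of 15 small subunit peaks (60.0%, 35.7 to 80.2), against 44.4% of all 19703 peaks outside distal intergenic sequence. The intervals overlap and cover counting error only. The gap of 23.3 percentage points became −10.4 when MRPS18A and MRPS30, which sit in the large subunit despite their names, were counted there, and −5.56 without the 6 peaks over 1 kb from the gene they are given to. A peak lay within 1 kb of the start in 24 of the 69 members with a listed start (34.8%, exact 95% interval 23.7 to 47.2), against 26.5% of all protein-coding genes (4205 of 15843). It was 15 of 42 for the large and 9 of 27 for the small subunit.

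These start peaks reached into the gene. A median of 80.3% of a peak's length lay after the start, 21 of the 24 peaks spanned the start, and 17 had most of their length after it. No values over the start peaks of all genes stand beside these, so the shape is not shown to be particular to the family. MRPL34, a large subunit protein with a bacterial counterpart, had a peak lying wholly in the gene, from 28 to 2079 bases after the start. MRPS22, a small subunit protein with no bacterial counterpart, had one from 52 to 1567 bases after it. MRPL54, another protein particular to mitochondria, was different, with a peak from −1413 to 390 bases relative to the start. Peaks with the member's own symbol had a median of 90.1% after the start (17 peaks), and those with a neighbour's symbol 30.2% (7 peaks). That contrast is built in, since the symbol goes to the nearer start.

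**Figure D2:**
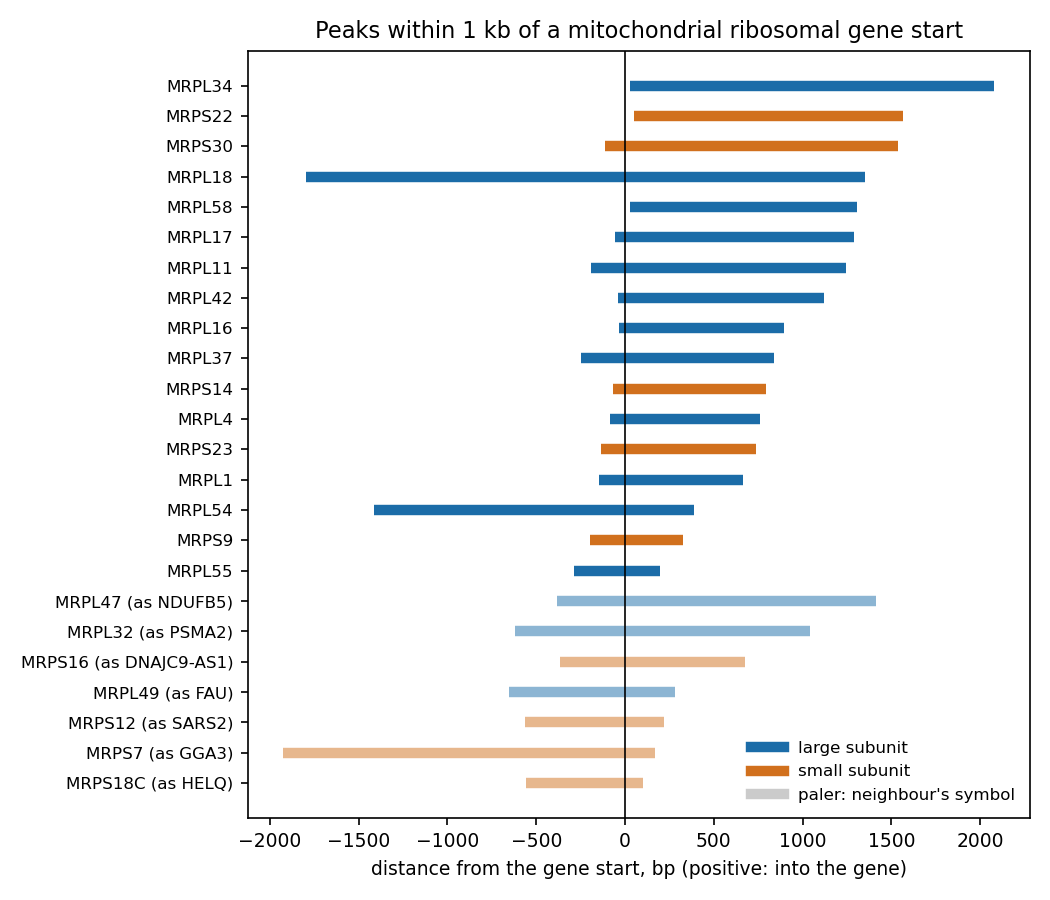
Extent of the 24 peaks within 1 kb of a member's start, in bases from that start on the horizontal axis, with positive values running into the gene. Paler bars are peaks that the table gives to a neighbour, named in brackets. Of the 24 bars, 21 cross the start.

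Sharing a start region with another gene was common in this family. A protein-coding gene on the other strand began within 1 kb of the start in 21 of 69 members (30.4%, exact 95% interval 19.9 to 42.7), against 11.7% of all protein-coding genes. It was 13 of 42 for the large and 8 of 27 for the small subunit. Members with such a partner had a start peak in 8 of 21 cases, and those without in 16 of 48. One example is MRPL18 with TCP1, a subunit of the cytosolic chaperonin, whose starts are 210 bases apart. Another is MRPL37 with CYB5RL, a reductase-like gene, 137 bases apart. In such pairs reads cannot be given to 1 gene or the other.

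The mark was low at promoter peaks that carry a member's symbol. The median member promoter peak had 53.4 scaled reads per kb of peak in group A and 52.6 in group B, against 84.1 in group A and 79.3 in group B for all 8739 promoter peaks. Only 3 of 24 member promoter peaks in group A and 4 of 24 in group B were above those medians. Among large subunit promoter peaks it was 0 of 15 in group A and 1 of 15 in group B, the 1 being MRPL18, and among small subunit ones 3 of 9 in each group. The 7 start peaks under a neighbour's symbol are not in these counts. They ran from 62.9 (MRPL32) to 93.4 (MRPS7) in group A, and from 43.6 (MRPS18C) to 130 (MRPS7) in group B. Of them, MRPL49 (92.3) and MRPS7 exceeded the median of all promoter peaks in group A, and MRPS16 (80.3) and MRPS7 in group B. Over all their peaks, large subunit genes had a median of 52.5 scaled reads per kb in group A and 51.7 in group B. Small subunit genes had 58.9 in group A and 52.9 in group B, so the ratio of large to small was 0.891 in group A and 0.978 in group B. These values are levels per kb, and the 33 peaks held a median of 68 reads in group A and 62 in group B.

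**Figure D3:**
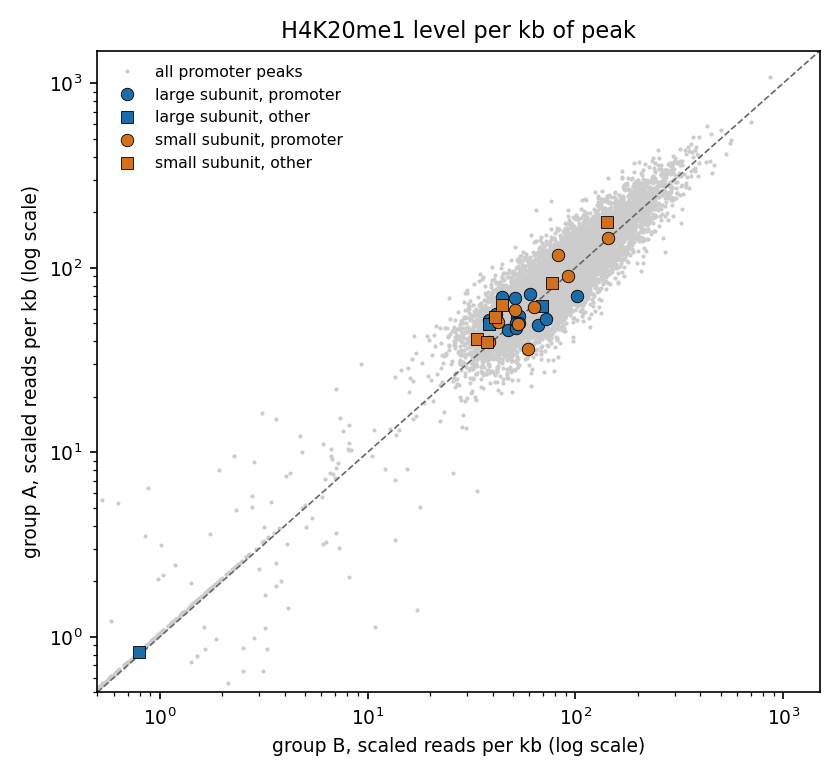
Scaled reads per kb of peak in group A (vertical) against group B (horizontal), both on log scales, for the 33 member peaks over all promoter peaks in grey. The dashed line marks equal values. Most members sit between 36.4 and 90.2 scaled reads per kb in group A, and the point at the lower left is the MRPL23 peak with 1 read in each group.

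In group A the 5 strongest peaks per kb all carried small subunit symbols, while in group B the MRPL18 promoter, at 101 scaled reads per kb, came after MRPS30 and MRPS18A. MRPS18A led in group A with 177 scaled reads per kb and had 142 in group B, in intron 1 of 5 (chr6:43683829-43684465). The promoter of MRPS30 (chr5:44808832-44810485) had 145 in group A and 143 in group B, where it was the highest. Both of these proteins lie in the large subunit of the human mitochondrial ribosome, although their symbols count them with the small one. MRPS28, a small subunit protein, followed at its promoter with 118 in group A and 82.9 in group B. MRPS25, a small subunit protein particular to mitochondria, had 90.2 in group A and 92.1 in group B at a peak 12405 bases past its RefSeq start, and a peak given to MRPS23 but 22.8 kb from that gene had 82.6 in group A and 77.1 in group B. The lowest was an intron peak of MRPL23, a protein at the mouth of the exit tunnel, with 1 read in either group.

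Fold changes at the family lay close to those of all genes. Over genes, taking the mean of a gene's peaks, the median log2 fold change was 0.05 (14 above and 10 below 0), against 0.08 over all 9020 genes with such a peak. Over the 33 peaks it was 0.06, with 21 above 0 and 12 below, against 0.09 over all peaks outside distal intergenic sequence, of which 60.9% were above 0. Group A had 2791207 reads in peaks and group B 2682916. Scaling both columns to equal reads lowers every fold change by 0.114 and leaves 14 member peaks above 0 and 19 below, with a gene median of −0.06. Relative to the median of all peaks outside distal intergenic sequence, a comparison that scaling does not alter, 15 of 33 member peaks were higher, 7 of 18 large and 8 of 15 small.

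In the authors' deposited table no member peak had an unadjusted p-value under 0.05, against 5.06% of all peaks, and no member had an adjusted p-value under 0.05, against 0% of all peaks. The smallest member p-value in the authors' deposited table was 0.096, at the promoter of MRPS23. A log2 fold change of at least 0.5 in size was found in 5 of 33 member peaks (15.2%), against 22.1% of peaks outside distal intergenic sequence. Of these, 3 were higher, where the background was 15%, and 2 were lower, where it was 7.03%. The large subunit had 2 of 18 and the small subunit 3 of 15. With both columns scaled to equal reads in peaks the count was again 5, but 1 was higher (MRPL37) and 4 were lower (MRPL58, MRPL22, MRPL18 and the MRPS23 promoter), and the large subunit then had 4 and the small subunit 1. The background was then 9.21% higher and 11.2% lower. No member peak reached 1 in size.

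**Figure D4:**
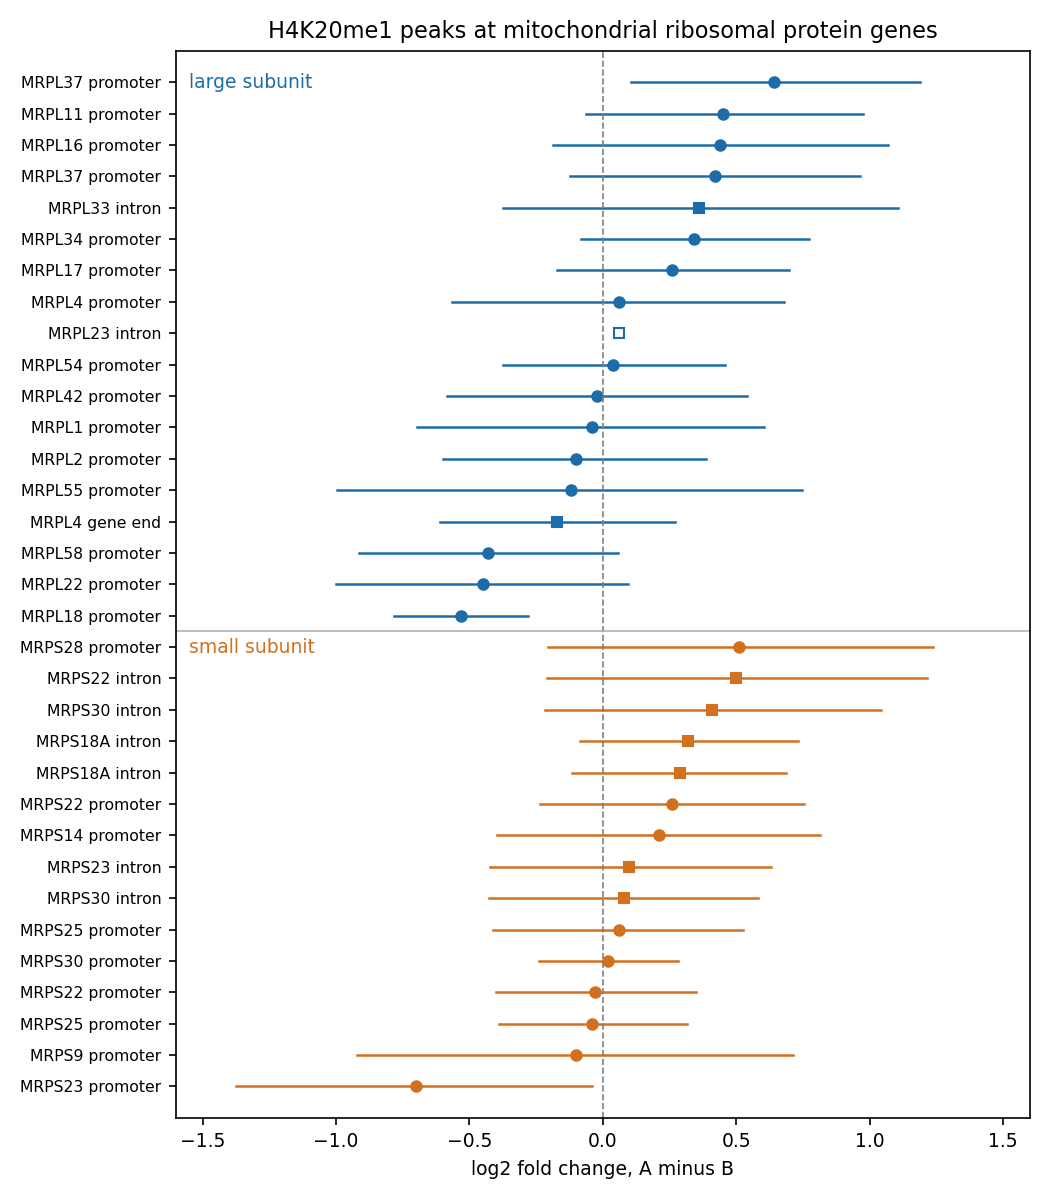
Log2 fold change (A minus B) of the 33 member peaks, large subunit above small, each sorted by value, with circles for promoter peaks and squares for intron or gene end peaks. Lines are exact 95% intervals from reads and cover counting error only, and the open square is a peak with 1 read in each group, drawn without its interval. The interval leaves out 0 at MRPL37, MRPL18 and the MRPS23 promoter.

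In the large subunit the highest value was at MRPL37, a protein particular to mitochondria. Its promoter peak (chr1:54199920-54201006) had 75 reads in group A and 50 in group B, a log2 fold change of 0.64 (95% interval from reads 0.11 to 1.19, counting error only; p-value 0.126 in the authors' deposited table). A second MRPL37 peak, 12759 bases into the gene and labelled a promoter of another start, had 68 reads in A and 53 in B and a log2 fold change of 0.42. Both peaks of this gene thus lay on the same side.

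MRPL11, which forms the base of the stalk where elongation factors act, had 75 reads in group A and 57 in group B at its promoter (chr11:66437604-66439038), a log2 fold change of 0.45. MRPL16, which lies close to the tRNA sites, had 52 reads in A and 40 in B (chr11:59809883-59810811), a log2 fold change of 0.44. MRPL33, a small protein with a bacterial counterpart, had 37 reads in A and 30 in B in an intron peak, a log2 fold change of 0.36, and the annotation names BABAM2 as the host of that intron. The intervals of these 3 peaks include 0.

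At the low end of the large subunit stood MRPL18, a protein of the central protuberance. Its peak (chr6:159788013-159791164), 3152 bases long, had 221 reads in group A and 332 in group B. The log2 fold change was −0.53 (95% interval from reads −0.78 to −0.28, counting error only; p-value 0.137 in the authors' deposited table). It held the most reads of any member peak in group B, and the TCP1 start lies under it as well.

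MRPL22, whose homolog lines the exit tunnel, had 50 reads in group A and 71 in group B at a peak in the gene (chr5:154944102-154945049), a log2 fold change of −0.45. MRPL58, also known as ICT1, a peptidyl-tRNA hydrolase built into the ribosome that can free stalled chains, had 63 reads in A and 88 in B at its promoter (chr17:75012697-75013978), a log2 fold change of −0.43. MRPL4, another tunnel protein, had 46 reads in A and 46 in B at its promoter, a log2 fold change of 0.06, and 83 reads in A and 97 in B at its 3′ UTR, a log2 fold change of −0.17. MRPL55 had 23 reads in A and 26 in B, a log2 fold change of −0.12, and MRPL2, which lies next to the peptidyl transferase centre, 68 reads in A and 76 in B, a log2 fold change of −0.10. None of these intervals leaves out 0.

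The other large subunit peaks were spread around 0. MRPL34 had a log2 fold change of 0.34 and MRPL17, like it a protein with a bacterial counterpart, one of 0.26. Apart from MRPL23, their reads ran from 41 in A and 44 in B at MRPL1 to 105 in A and 86 in B at MRPL34. MRPL54 was at 0.04, MRPL42 at −0.02, and MRPL1, the protein of the stalk by which spent tRNA leaves, at −0.04. Of the 16 large subunit genes, 8 were above 0 and 8 below. Those above include MRPL23, at 0.06 with 1 read in each group, a value that comes from the scaling of the columns alone.

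In the small subunit the value farthest from 0 was at the promoter of MRPS23, a protein particular to mitochondria. That peak (chr17:57849304-57850181) had 32 reads in group A and 54 in group B, a log2 fold change of −0.70 (95% interval from reads −1.38 to −0.04, counting error only). The other peak given to MRPS23 had 64 reads in A and 62 in B, a log2 fold change of 0.10, so the 2 peaks did not share a side. MRPS28 had 41 reads in A and 30 in B at its promoter, a log2 fold change of 0.51 (interval −0.21 to 1.24).

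MRPS22, in which mutations cause a respiratory chain deficiency, had 3 peaks. At its own start 77 reads were in group A and 67 in group B, a log2 fold change of 0.26. A peak 78.5 kb away, in an intron, had 42 reads in A and 31 in B, a log2 fold change of 0.50, and one 230.3 kb away, labelled a promoter of another start, had 118 reads in A and 125 in B, a log2 fold change of −0.03. MRPS30 also had 3 peaks. Its promoter had 241 reads in A and 247 in B, a log2 fold change of 0.02, while intron peaks 247 and 235 kb away had 51 reads in A and 40 in B (log2 fold change 0.41) and 69 reads in A and 68 in B (log2 fold change 0.08). The annotation places the 0.50 peak in intron 2 of 9 of an MRPS22 transcript, although it lies outside the RefSeq span of the gene. At both MRPS22 and MRPS30 the highest value thus stood at a peak outside the RefSeq span. MRPS18A had 113 reads in A and 94 in B at its intron 1 peak (log2 fold change 0.32) and 116 in A and 99 in B at a peak 36 kb off (log2 fold change 0.29).

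MRPS25 had 79 reads in A and 79 in B at one peak (log2 fold change 0.06) and 133 in A and 142 in B at the other (log2 fold change −0.04). MRPS14, a protein of the head of the subunit with a bacterial counterpart, had 51 reads in A and 46 in B, a log2 fold change of 0.21. MRPS9, whose bacterial homolog reaches toward the P-site tRNA, had 26 reads in A and 29 in B, a log2 fold change of −0.10. Of the 8 small subunit genes, 6 were above 0 and 2 below.

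Large and small subunit genes were set against each other by their medians. The large subunit median was 0.01 over 16 genes and the small subunit median 0.19 over 8, a difference of −0.18. It moved with the peaks that were counted: it was −0.01 with promoter peaks only, −0.01 when peaks were assigned by position, −0.11 without the 6 peaks over 1 kb away, and −0.06 with MRPS18A and MRPS30 counted in the large subunit. The error of these medians was not estimated, since there is 1 column per group. At promoters the large subunit median was 0.04 (15 peaks) and the small subunit median 0.02 (9 peaks).

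In the deposited values the intron peaks stood on 1 side. All 8 were above 0, with a median of 0.30 and a range of 0.06 to 0.50. For all intron peaks the median was 0.10, and 60.9% were above 0. Relative to that median 5 of the 8 were higher. The value of 0.06 is the MRPL23 peak with 1 read in each group. Scaling both columns to equal reads put that peak at −0.05, the MRPS30 peak of 0.08 at −0.03 and the MRPS23 intron peak at −0.01. The other intron peaks stayed above 0, so the single side depended on the scaling. Of the 8, 5 lie over 1 kb from the gene whose symbol they carry, and 6 are small subunit by symbol. The 24 promoter peaks had a median of 0.03, with 13 above 0 and 11 below, and 9 of them were above the median of all promoter peaks, 0.09.

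Some member peaks lay on the same side of 0 as their chromosome region, and others did not. The region around each member peak was described by the median log2 fold change of the other peaks within 5 Mb, which ran from −0.24 to 0.27. On chromosome 17 from 25 Mb on, the 935 peaks had a median of −0.18, and only 30.5% were above 0. Of the 3 member peaks there, the MRPS23 promoter and MRPL58 were below 0, with regional medians of −0.08 and −0.24, and the other MRPS23 peak, at 0.10, was above 0 and above its region. With the regional median subtracted, MRPL58 stood at −0.185. The MRPS23 promoter stood at −0.615, as far under its region as MRPL18 (−0.59) and nearly as far as MRPL22 (−0.70). MRPL18 (region 0.06) and MRPL22 (region 0.25) were low where their neighbours were not, while MRPS28 (region −0.04), the MRPL37 promoter (region 0.16) and MRPL33 (region −0.08) stood farthest above their neighbours. After subtraction of the regional median the 33 peaks had a median of 0.00, with 16 above and 16 below, the large subunit at −0.04 and the small at 0.09. The part of the region in the members' values was not tested.

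**Figure D5:**
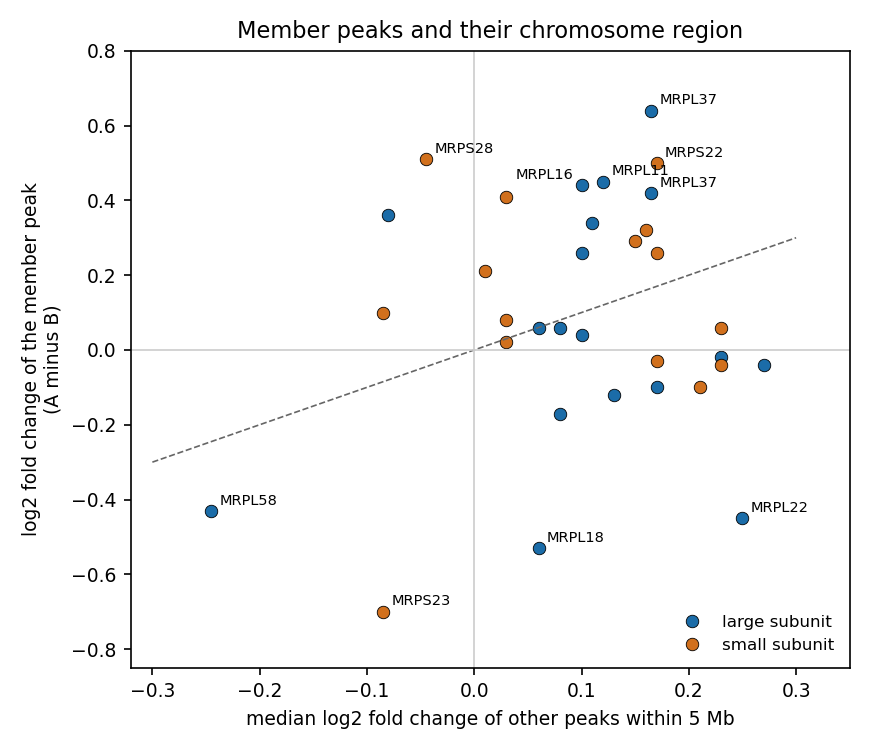
Log2 fold change of each member peak (vertical, A minus B) against the median of other peaks within 5 Mb (horizontal), with the dashed line marking equal values. Named points are at least 0.42 in size. MRPL58 lies in the region with the lowest median, −0.24, while MRPL22 lies far under its region.

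The highest value at any member's start was hidden under a neighbour's symbol. The peak over the start of MRPS18C, a human relative of bacterial S18, carries the symbol of the helicase gene HELQ (chr4:83455499-83456159). It had 51 reads in group A and 30 in group B, a log2 fold change of 0.82 (95% interval from reads 0.14 to 1.52, counting error only; p-value 0.0508 in the authors' deposited table). It exceeds every peak that carries a member's symbol, but only 15.3% of its length lies after the MRPS18C start. The peak reaches 101 bases into MRPS18C, and the HELQ start, 175 bases upstream, lies under it as well.

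At the other end, the peak over the start of MRPS7, which binds the small subunit RNA in the head, carries the symbol GGA3 (chr17:75259955-75262046). It had 195 reads in group A and 283 in group B, a log2 fold change of −0.48 (interval −0.75 to −0.21; p-value 0.187 in the authors' deposited table). This peak lies on the same chromosome 17 segment as MRPL58 and reaches only 167 bases into MRPS7. A peak in or near MRPS2, given to LOC101928525, had 128 reads in A and 182 in B, a log2 fold change of −0.45.

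The other peaks with a neighbour's symbol were nearer to 0. MRPL47 had a peak given to NDUFB5, a complex I gene, with 118 reads in group A and 99 in group B (log2 fold change 0.31). The peak shared by MRPL49 and FAU had 86 reads in A and 75 in B (log2 fold change 0.25), and that of MRPS12, a decoding centre protein, and SARS2 had 60 in A and 55 in B (log2 fold change 0.18). MRPS16 under DNAJC9-AS1 had a log2 fold change of −0.01, MRPL32 under PSMA2 one of −0.06, and MRPL13 under MTBP one of −0.25. A further peak by the MRPL47 gene, given to ACTL6A, stood at 0.01. Over the 24 start peaks, under any symbol, 14 were above 0 and 10 below, with a median of 0.05.

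Genes that work with this ribosome were read from 4 lists, again as log2 fold changes of A minus B, with a gene's peaks averaged. As background, 38.8% of all protein-coding genes had a peak under their own symbol. Of the 9020 genes with a peak outside distal intergenic sequence, 61.2% were above 0, with a median of 0.08. Of 5 ribosomal proteins with other symbols, 2 had a peak: PTCD3, a small subunit protein, at 0.36 and AURKAIP1, also of the small subunit, at −0.46. Of 17 translation factors and mRNA-binding partners, 7 had a peak, 4 above 0 and 3 below (median 0.01), from SLIRP at 0.42 to the release factor MTRF1L at −0.55. Of 22 genes for charging mitochondrial tRNAs, 11 had a peak, 5 above and 6 below (median −0.19), from MARS2 at 0.67 to FARS2 at −0.84. Of 29 assembly factors and rRNA modifiers, 9 had a peak, 3 above and 6 below (median −0.10), from MTG2 at 0.45 to TFB1M at −1.20.

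In the authors' deposited table, unadjusted p-values under 0.05 were given to 0 of 2, 0 of 7, 1 of 13 and 1 of 14 peaks of these lists, against 5.06% of all peaks, and adjusted p-values to none. The 1 peak of the assembly list was the promoter of TFB1M, whose enzyme dimethylates the small subunit rRNA. It had 26 reads in group A and 62 in group B, with an unadjusted p-value of 0.00523 in the authors' deposited table. The 1 peak of the tRNA list was the promoter of FARS2, with 36 reads in A and 67 in B and an unadjusted p-value of 0.0471 in the authors' deposited table. MARS2 had 197 reads in A and 129 in B. The SARS2 peak is the one that also covers the start of MRPS12.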

How the data were processed

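The series holds 4 CUT&Tag libraries of H4K20me1 (2 per genotype), and 1 deposited table of 25514 peaks was read. Whether all 4 libraries are in that table is not stated. Per the submitters' processing notes, cutadapt and Bowtie2 were used for all libraries and DESeq for 2, on hg38. Versions, the peak caller and which libraries make up a column: not given in the sources used here. The authors deposited log2 scaled reads per peak and group, a log2 fold change, and unadjusted and adjusted p-values. The column meanings were settled from the values: the deposited fold change is A minus B within 0.01 at each peak, A being the earlier column.

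All low values (5676 and 5557) equalled log2 of whole reads plus 0 in A or −0.057 in B, within 0.0061. Reads in peaks were thus 2791207 and 2682916, with a median of 72 per peak in both. Low read numbers from 2 to 7 were even in 75.5% and 86.9% of cases, so both ends of a fragment may have been counted. Reads of well covered peaks are recovered only within the rounding of the deposited log2 values, 0.01. Scaled reads are 2 raised to the log2 value. Exact Clopper-Pearson 95% intervals for the fold changes use the recovered reads and cover counting error only. If reads were pairs, 1 member interval (MRPL18) in place of 3 would leave out 0. No test was possible with 1 column per group, and the p-values are the authors'.

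Members and lists were chosen with earlier results of these data known. Named were the 8 highest and 8 lowest member peaks, the 5 with most reads per kb, genes with 2 or more peaks, MRPS18A, MRPS30 and the ends of each list. Other members, and the peaks under a neighbour's symbol, were named after their values were seen. Gene spans, starts and promoter sequences came from RefSeq (GRCh38.p14): 77 members in the gene table, 69 with a promoter. A distance to a gene is to the RefSeq span. Intervals were tested on simulated reads drawn independently, so that test does not cover reads counted in pairs. Python 3.11.15, pandas 2.3.3, numpy 2.4.6, SciPy 1.17.1 and matplotlib 3.10.9 were used.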

Additional observations from a re-analysis of the deposited data

How the results depend on the processing

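The 7 results (the gene median, the large minus small difference, the peaks of at least 0.5 in size, the peaks past the authors' p-value, the ratio of levels, the gap in promoter share and the share of genes with a peak) were recomputed in 53 alternatives, and 44 did not change sign and moved by less than a limit set from counting error (for fold change medians that of a single peak, which is wider than the error of a median). That count does not measure robustness, since some of the 44 could not have changed. No member carried a pseudogene symbol, stricter p-value limits cannot lower a count of 0, and scaling cannot alter a difference of medians. The limit was also wide enough that a large minus small difference of −0.18 that became −0.01 counted as unchanged. The gene median of 0.05 became −0.064 when both columns were scaled to equal reads in peaks and −0.03 after subtraction of the regional median. The large minus small gap in promoter share of 23.3 percentage points became −10.4 with MRPS18A and MRPS30 counted as large and −5.56 without peaks over 1 kb from their gene. The 5 peaks of at least 0.5 in size became 1 once peaks under the median signal were left out, 10 with distal intergenic peaks included, 14 at a limit of 0.3 and 0 at a limit of 1. Scaled to equal reads the count was again 5, with 1 higher and 4 lower in place of 3 and 2, and 4 large and 1 small in place of 2 and 3. The share of genes with a peak, 31.2%, became 42.9% by position. Assignment by position, leaving out far peaks or the peak with 1 read, and the regional subtraction were chosen after seeing the data. No paired analysis was possible because the table has 1 column per group, and for the same reason no library could be left out. The cause of each shift beyond the alternative's own construction was not tested. At a median of 68 reads in group A and 62 in group B per member peak, a log2 fold change under about 0.527 was not detectable at 1 peak.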

Other observations

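Outside the rule, 16 more peaks carry a symbol of the family but lie in distal intergenic sequence. Of these, 8 carry MRPS30 and 3 the divergent transcript MRPS30-DT, spread over a stretch with few genes on chromosome 5. The MRPS30 peaks ran from 0.45 (50 reads in group A and 38 in group B) to −0.66 (17 reads in A and 28 in B). The MRPS30-DT peaks had log2 fold changes of −0.54, 0.22 and −0.69. A peak given to MRPL23 on an unlocalized chromosome 11 contig had 8 reads in A and 22 in B, a log2 fold change of −1.40 and an unadjusted p-value of 0.0319 in the authors' deposited table. A peak given to MRPL45 on an alternate chromosome 17 contig had 1 read in A and 4 in B.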
